A study of Mus musculus with 4 samples.

Results

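Blood clotting, clot dissolution and complement rest on a set of plasma proteins that are made mostly in the liver. This account covers 53 genes of these systems, listed by symbol. It describes them on 4 mouse liver expression arrays. A probe set annotated to 1 gene was found for 49 of them, among 30838 named genes in all. Where a gene had several such probe sets, the brightest on average was read. All 49 lay above the level used to leave out dim genes (a mean of 4.322), as did 18503 genes of the whole array. C3, Cfd and Cpb2 were not analysed here. Klkb1 shares its probe set with Cyp4v3, and is given only as the reading of that shared probe set.

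Each array held liver RNA pooled from 3 male fasted mice. Wildtype here means mice with a floxed Yap1 gene, and YAP-KO means mice with YAP knocked out. YAP is a transcriptional coactivator of the Hippo pathway. The sources used here give no Cre driver, strain or cell type of deletion. Both genotypes were measured at 0 h, without acetaminophen, and 24 h after 300 mg/kg acetaminophen by intraperitoneal injection, an overdose that injures hepatocytes. There was 1 array per group, so no difference below has a replicate error or a test. A pool also hides the spread between its mice. No array of mice without the drug at 24 h was used here, and the effect of the drug cannot be told apart from that of time, handling or feeding. The study asks what YAP does in the liver as it regenerates after the overdose.

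The range of the values is that of a log2 scale, and they are read so: 1 unit is 2-fold. Paired values at 1 time are given with wildtype first and YAP-KO second. A response is the log2 difference of 24 h minus 0 h within a genotype. A gene is counted as higher or lower when it differed by 2-fold or more. The highest value of each array, 19.83 to 19.93, is shared by 141 to 167 probe sets and is read as saturation. Alb, Ttr, Apoa2, Apob and Ahsg, genes that define hepatocytes, were saturated on all 4 arrays, and T and B cell genes such as Cd3e (3.73 to 3.76) stayed dim. Yap1 read 7.54 in wildtype against 6.31 in YAP-KO at 0 h, then 8.24 and 6.01 at 24 h. In whole liver, fewer cells of a type and less RNA per cell cannot be told apart.

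Coagulation is a cascade of proteases that ends with thrombin (F2) cutting fibrinogen into fibrin. Several of these proteases need a vitamin K-dependent modification to bind membranes. Plasmin, cut from plasminogen (Plg), dissolves fibrin. Complement is a second protease cascade that is started by C1q, by mannose-binding lectins or by the alternative pathway. It ends in a pore built from C5 to C9. Hepatocytes secrete most of these proteins, while endothelial cells and macrophages supply C1q, properdin, factor VIII, thrombomodulin, the plasminogen activators and several receptors. By textbook source, 36 of the measured genes are hepatocyte-made and 13 are made by other liver cells. On the arrays the hepatocyte-made genes read 9.53 to 19.86 in wildtype at 0 h, and the other 13 read 4.61 to 10.67.

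Promoters of 3 hepatocyte-made genes are shown: those with a match to the C/EBP motif wholly before the start site whose level was 2-fold or more lower in wildtype liver at 24 h. C/EBP factors are transcription factors of hepatocytes and other cells. Each sequence is the 250 bases before the RefSeq start site (GRCm38.p6), read 5′ to 3′ on the gene's strand, and capitals mark the match.
C1s1, chr6:124542360-124542609, minus strand: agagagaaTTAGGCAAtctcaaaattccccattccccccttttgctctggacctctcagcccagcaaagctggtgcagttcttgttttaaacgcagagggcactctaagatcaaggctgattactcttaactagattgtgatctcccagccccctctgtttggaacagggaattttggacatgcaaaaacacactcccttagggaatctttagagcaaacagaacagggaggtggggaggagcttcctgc
C9, chr15:6445096-6445345, plus strand: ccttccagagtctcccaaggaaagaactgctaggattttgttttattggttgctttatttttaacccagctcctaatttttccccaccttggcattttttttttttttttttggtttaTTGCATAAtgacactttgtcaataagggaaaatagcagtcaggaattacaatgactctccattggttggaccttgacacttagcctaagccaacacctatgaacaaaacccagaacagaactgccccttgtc
F9, chrX:59999214-59999463, plus strand: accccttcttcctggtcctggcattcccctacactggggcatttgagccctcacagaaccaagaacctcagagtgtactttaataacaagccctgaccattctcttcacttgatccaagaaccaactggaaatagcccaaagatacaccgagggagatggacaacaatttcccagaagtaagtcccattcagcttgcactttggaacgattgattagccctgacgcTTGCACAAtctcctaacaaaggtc
The match starts 242 bases before the start site in C1s1, 132 in C9 and 24 in F9. C1s1 has a second RefSeq start site, and the 250 bases before that site held no C/EBP match. The wildtype response of F9 lay on the 2-fold threshold.

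Windows of 300 bases (250 before to 50 after the start site) were found for 36 measured members. The C/EBP motif TTGCNNAA was in 9 of 30 windows of hepatocyte-made members (30%), in 1 of 9 windows of members made by other cells and in 10.8% of all 32851 promoter windows, and the STAT motif TTCNNNGAA was in 26.7% of hepatocyte-made windows, 0 of 9 windows of other members and 8.3% of all windows. GGAATG, the letters bound by TEAD factors through which YAP acts, was in 30% of hepatocyte-made and 14.7% of all windows. A short core of interleukin 6 response elements, CTGGGAA, was in 23.3% and 11.1%. All 4 were searched on both strands, and matches of different motifs may overlap. These are matches of letters, and binding was not measured.

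In wildtype liver most hepatocyte-made genes read lower at 24 h than at 0 h, and most genes of other liver cells read higher. Kng2 (0.19) and Masp1 (0.06) went against the first group, and F8 (-0.19) and Vwf (-0.13) against the second. Of the 36 hepatocyte-made genes, 15 were 2-fold or more lower and 0 higher, where 5.87% of the 18503 genes were lower and 12.7% higher. The median difference was -0.78, against 0.07 over all genes. Hepatocyte genes are bright, and of the 3177 genes with a mean of 10 or more 15.1% were lower and 24.9% higher. Of the 13 genes of other liver cells, 8 were higher and 0 lower, with a median of 1.07. In YAP-KO liver the same contrast gave 1 hepatocyte-made gene higher and 1 lower of 36, with a median of 0.08, where 4.73% of all genes were higher and 2.22% lower (13.6% and 5.95% of the bright genes). The higher gene was F11 and the lower one C6. Among the genes of other cells 3 were higher and 0 lower, with a median of 0.42. Medians over the 36 include the saturated fibrinogen genes at their read values.

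Taking both directions, 23 of the 49 members passed 2-fold in wildtype (18.5% of all genes) and 5 in YAP-KO (6.95%). Between the genotypes 1 passed at 0 h (1.89%) and 17 at 24 h (8.96%), and 22 passed for the difference of the responses (13.1%). At 1.5-fold these counts were 32 (35.2%), 13 (19.5%), 3 (8.32%), 29 (21.7%) and 31 (30.2%). The counts for the genotypes at 0 h and for the YAP-KO response were thus the nearest to the shares of all genes, and are not results about the members.

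**Figure D1:**
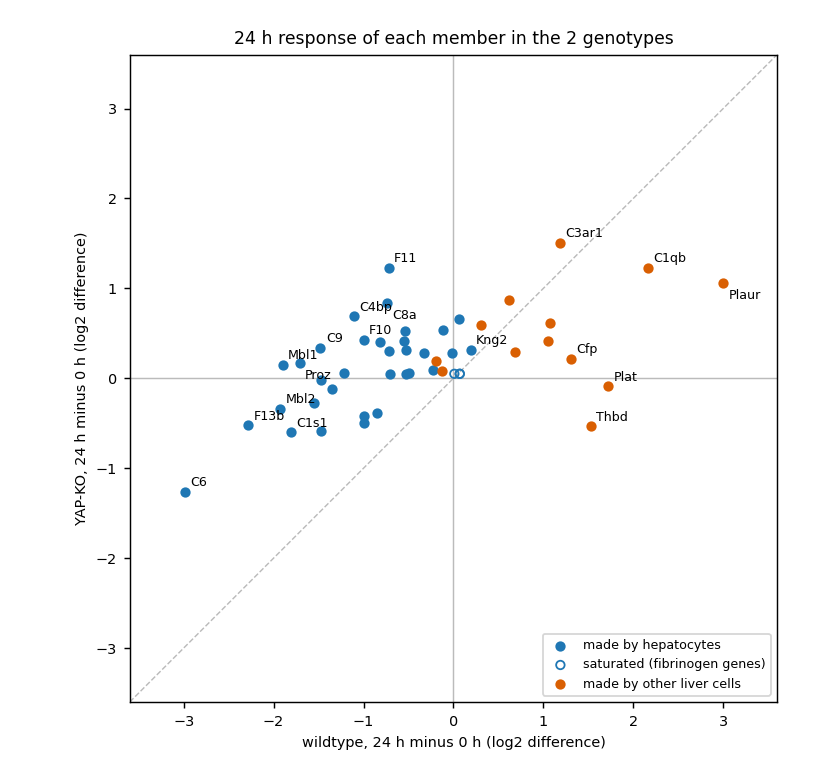
Each point is 1 gene, with its log2 difference between 24 h and 0 h in wildtype on the x axis and in YAP-KO on the y axis; blue points are hepatocyte-made genes, orange points are made by other liver cells, open points are the saturated fibrinogen genes and the dashed line marks equal responses. All 33 unsaturated hepatocyte-made genes lie above the line, and 8 of 13 genes of other cells lie below it. Of all 18503 genes, which are not drawn, the response was higher in YAP-KO for 9088 and lower for 9252. The 8 of 13 is not far from that share.

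The vitamin K-dependent factors were lower in wildtype at 24 h in 7 of 7 cases. In 4 of them this was by 2-fold or more, where 5.87% of all genes were lower (15.1% of the bright genes). F7, the protease that starts coagulation with tissue factor, read 11.66 on both arrays at 0 h, then 10.19 and 11.64 at 24 h. Only the wildtype 24 h array was low, and the response was -1.47 in wildtype against -0.02 in YAP-KO. Proz, a cofactor in the inhibition of factor Xa, read 13.25 on both arrays at 0 h, 11.54 in wildtype at 24 h and 13.42 in YAP-KO at 24 h. F10, the protease that makes thrombin, read 12.47 and 12.44 at 0 h, then 11.47 and 12.87 at 24 h. In wildtype it lies on the 2-fold threshold, and its YAP-KO response was 0.43. F7, F10 and Proz are successive protein-coding genes of chromosome 8, and in each the wildtype 24 h array gave the lowest reading.

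F9, the protease lacking in haemophilia B, read 16.12 and 16.17 at 0 h, then 15.12 and 15.67 at 24 h. It was the member of this group with the lowest YAP-KO response, -0.50. Proc, the anticoagulant protein C, read 14.90 and 14.84 at 0 h, then 14.05 and 14.45 at 24 h. Thrombin's own gene, F2, differed less, with 16.57 and 16.54 at 0 h, then 16.04 and 16.59 at 24 h. Pros1, the cofactor of protein C, read 10.16 and 10.38 at 0 h, then 9.83 and 10.66 at 24 h. Of these 4 genes, F9 and Proc were below their 0 h values in both genotypes at 24 h, and F2 and Pros1 in wildtype only.

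Of the cofactors, F5 followed the liver proteases. Factor V speeds the making of thrombin, and F5 read 17.05 in wildtype against 16.92 in YAP-KO at 0 h, then 15.83 and 16.98 at 24 h. The wildtype response was -1.22 and that in YAP-KO 0.06. F8, the endothelial factor lacking in haemophilia A, stayed within 10.48 to 10.67 on all arrays. Von Willebrand factor, Vwf, carries factor VIII and was dim, at 4.89 to 5.07. Tfpi, which inhibits tissue factor, read 6.13 to 6.72 and was 0.31 higher in wildtype and 0.59 higher in YAP-KO at 24 h.

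Thbd differed in opposite directions in the 2 genotypes. It encodes thrombomodulin, the endothelial receptor that makes thrombin activate protein C. It read 6.88 in wildtype against 7.39 in YAP-KO at 0 h, then 8.41 and 6.86 at 24 h. Wildtype at 24 h was the high array, with responses of 1.53 in wildtype against -0.53 in YAP-KO.

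The contact system starts clotting on charged surfaces and releases bradykinin. F11 read 12.38 in wildtype against 12.24 in YAP-KO at 0 h, then 11.66 and 13.47 at 24 h. It was the only hepatocyte-made member 2-fold higher at 24 h in YAP-KO (1.23), and it was -0.72 in wildtype. F12 stayed between 14.82 and 15.05. The kininogen genes, precursors of bradykinin, differed by under 1.5-fold in each contrast. Kng1 read 17.25 and 17.22 at 0 h, then 17.23 and 17.50 at 24 h, and Kng2 read 16.70, 16.80, 16.89 and 17.12 in the same order. Kng1 and Kng2 are close paralogs whose signals the array may not separate. The probe set of plasma kallikrein shared with Cyp4v3 read 15.94 and 15.45 at 0 h, then 13.42 and 14.17 at 24 h, and which of the pair it follows is not known.

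No response can be given for fibrinogen. Fgb and Fgg were saturated on all 4 arrays. Fga was saturated on 3 and lay 0.07 below the ceiling in wildtype at 24 h. A loss small enough to leave them at the ceiling would not be seen. F13b, the carrier subunit of the factor XIII that crosslinks fibrin, was below the ceiling and read 14.36 in wildtype against 13.89 in YAP-KO at 0 h, then 12.08 and 13.37 at 24 h. Its wildtype response of -2.28 was the lowest among the coagulation members with a probe set of their own, and its YAP-KO response was -0.52.

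Among genes of fibrinolysis, those of plasma proteins read lower and those of the activators and their receptor higher in wildtype at 24 h. Plg, which encodes plasminogen, read 19.24 and 19.21 at 0 h, then 18.53 and 19.26 at 24 h. Hrg, which encodes a plasma glycoprotein that binds plasminogen and heparin, read 19.31 and 19.28, and 18.82 and 19.34. Both lay within 1.40 of the ceiling, and both were lower on the wildtype 24 h array only. Plaur, the receptor that holds urokinase on the cell surface, read 5.02 and 4.95 at 0 h, then 8.02 and 6.01 at 24 h. Its response was 3.00 in wildtype against 1.06 in YAP-KO, from 0 h readings as dim as that of Vwf, with no known floor. Plat, tissue plasminogen activator, read 4.76 and 4.81 at 0 h, then 6.48 in wildtype but 4.72 in YAP-KO at 24 h. Plau, urokinase, was dimmer, at 4.61 and 4.58 and then 5.23 and 5.45, with the YAP-KO reading the higher of the pair at 24 h.

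Hgfac, a liver protease that activates hepatocyte growth factor, read 11.49 and 11.43 at 0 h, then 10.96 and 11.75 at 24 h.

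Of the 23 measured complement genes, 9 were lower and 5 higher in wildtype at 24 h, beside 5.87% and 12.7% of all genes. In YAP-KO 1 was lower and 2 higher, near the shares of all genes (2.22% and 4.73%). The 9 lower genes are hepatocyte-made, and the 5 higher ones are C1qb, C1qc, Cfp, C3ar1 and C5ar1, which macrophages and other myeloid cells express.

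C1q, the recognition molecule of the classical pathway, has 3 chains encoded side by side on chromosome 4. C1qb read 8.94 in wildtype against 8.99 in YAP-KO at 0 h, then 11.10 and 10.22 at 24 h. C1qc read 7.21 on both arrays at 0 h, then 8.26 and 7.63 at 24 h. C1qa read 7.03 and 6.93, and 7.72 and 7.22. All 3 chains were higher at 24 h in both genotypes, and each response was smaller in YAP-KO (1.23, 0.42 and 0.29 against 2.16, 1.05 and 0.69).

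The proteases that C1q activates were lower at 24 h, more so in wildtype. C1s1 read 14.45 and 14.14 at 0 h, then 12.64 and 13.54 at 24 h. C1ra, its neighbour on chromosome 6, read 12.86 and 12.70, and 11.39 and 12.11. The response of C1s1 was -1.81 in wildtype against -0.60 in YAP-KO, and that of C1ra -1.47 against -0.59. The paralogs C1s2 and C1rb gave close readings (-1.86 and -1.54 in wildtype), and cross-hybridisation between such copies was not tested. C2, which C1s cuts, read 9.53 and 9.45 at 0 h, then 8.54 and 9.03 at 24 h. Its wildtype response of -0.99 lies just short of the 2-fold threshold. C4b, the other substrate of C1s, read 15.27 and 15.40, and 14.73 and 15.93. It was lower in wildtype (-0.54) and higher in YAP-KO (0.53), as was its paralog C4a (-0.58 and 0.25).

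In the lectin pathway the recognition molecules had lower wildtype responses than their proteases (-1.90 for Mbl1 and -1.93 for Mbl2, against -0.72 for Masp2 and 0.06 for Masp1). In YAP-KO the responses were 0.15 and -0.34, against 0.30 and 0.66. Mbl1, mannose-binding lectin A, read 12.24 in wildtype against 12.13 in YAP-KO at 0 h, then 10.34 and 12.28 at 24 h. The wildtype 24 h array was low and the other 3 lay within 0.15 of each other. Mbl2, mannose-binding lectin C, read 13.95 and 15.25 at 0 h, then 12.02 and 14.91 at 24 h. It was the only member that differed 2-fold between the genotypes at 0 h, by 1.30, where 1.02% of all genes were higher and 0.876% lower in YAP-KO. Masp2 read 13.76 and 13.73, and 13.04 and 14.03, and Masp1 read 13.35 and 13.23, and 13.41 and 13.89. Masp1 was thus not lower in wildtype at 24 h.

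The regulators of C3 and C4 breakdown included a gene that differed in opposite directions in the genotypes. C4bp, the C4b-binding protein, read 17.43 in wildtype against 17.18 in YAP-KO at 0 h, then 16.32 and 17.87 at 24 h. Its response was -1.11 in wildtype against 0.69 in YAP-KO. Cfi, the protease that degrades C3b and C4b, was nearly level in wildtype, at 18.06 and then 17.94, and went from 17.87 to 18.41 in YAP-KO. Cfb, the protease of the alternative pathway, read 16.23 and 16.03, and 15.68 and 16.44. Properdin, Cfp, which stabilises that pathway's convertase and comes from myeloid cells, read 7.74 and 8.14, and 9.05 and 8.36. Its response was 1.31 in wildtype against 0.22 in YAP-KO.

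All 6 members of the terminal pore were lower in wildtype at 24 h. Of these, 4 were lower by 2-fold or more, where 5.87% of all genes were (15.1% of the bright genes). C7, a pore gene outside the members, went the other way. It read 5.75 and 5.65 at 0 h, then 6.39 and 5.60 at 24 h. C6 had the lowest response of all members in both genotypes. It read 14.58 and 14.96 at 0 h, then 11.59 and 13.70 at 24 h, a difference of -2.99 in wildtype against -1.26 in YAP-KO. C6 is made by Kupffer cells as well as hepatocytes in mice, and their part in its reading was not tested. C9, the subunit that lines the pore, read 16.13 and 15.29 at 0 h, then 14.65 and 15.63 at 24 h. Its wildtype response was -1.48, or -0.64 against the YAP-KO 0 h array, since the genotypes already differed by -0.84 at 0 h.

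The 3 genes of the C8 complex gave unlike readings at 24 h. C8a read 16.40 on both arrays at 0 h, then 15.66 and 17.24 at 24 h. C8b, its neighbour on chromosome 4, read 15.67 and 15.80, and 14.32 and 15.68. C8g read 13.69 and 13.08, and 12.14 and 12.81. Thus C8a was higher at 24 h in YAP-KO by 0.84, while C8b and C8g were at -0.12 and -0.27. Hc, which encodes C5, read 17.84 and 17.81, and 17.02 and 18.21, again lower in wildtype (-0.82) and higher in YAP-KO (0.40).

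The receptors of the released fragments C3a and C5a were dim and higher at 24 h in both genotypes. C3ar1 read 4.64 and 4.21 at 0 h, then 5.82 and 5.72 at 24 h. C5ar1 read 4.80 and 5.10, and 5.87 and 5.72. Within each gene the 24 h readings differed by 0.10 and 0.15 between the genotypes.

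**Figure D2:**
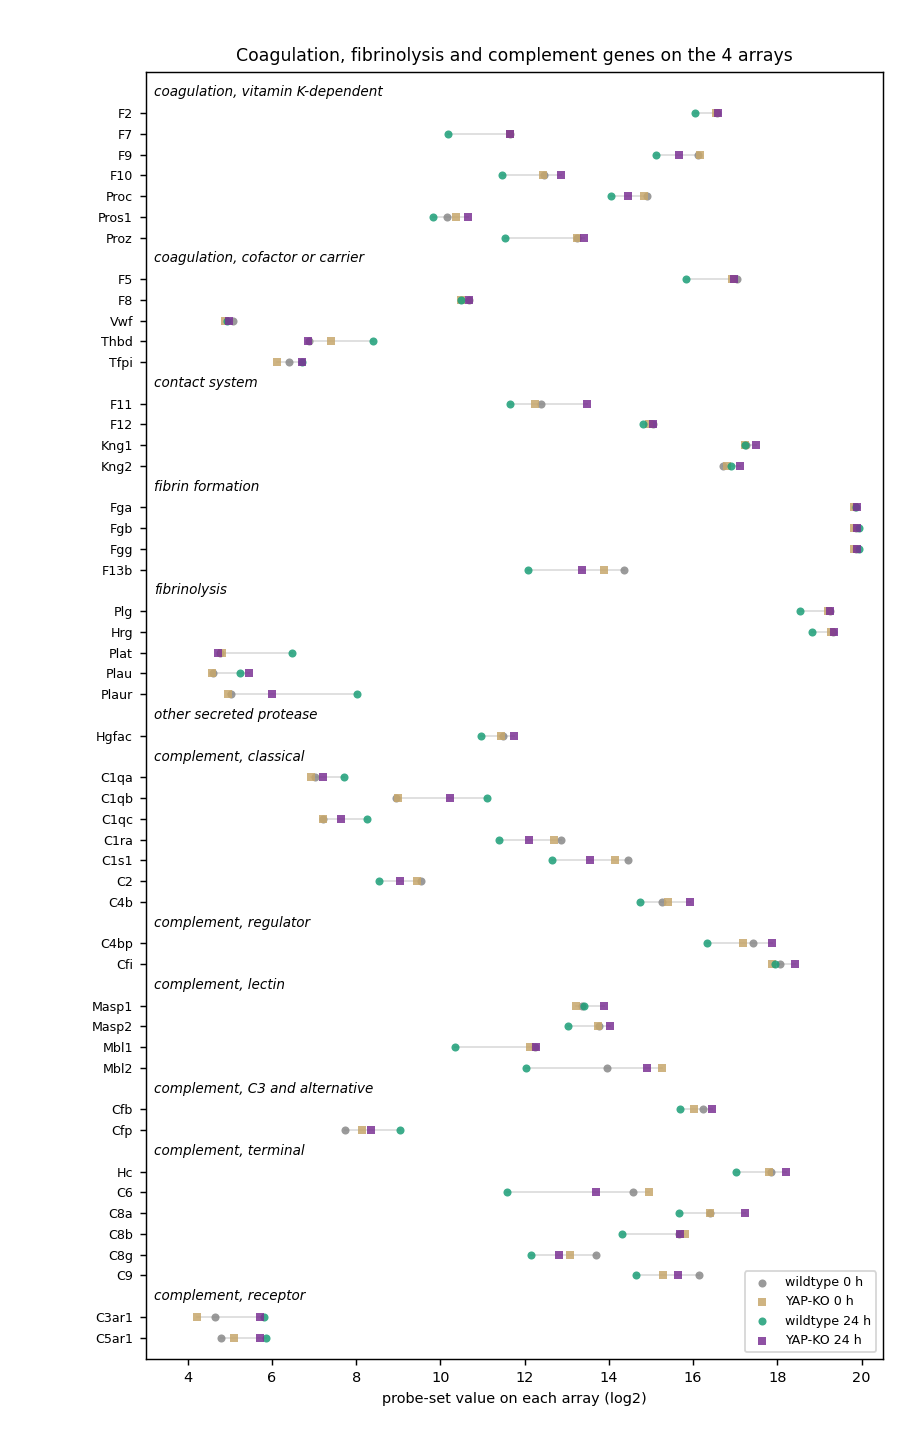
Each row is 1 gene, grouped by role, and each point is its log2 probe-set value on 1 array (circles wildtype, squares YAP-KO; grey and tan 0 h, green and purple 24 h); grey lines span the 4 arrays. In most hepatocyte-made rows the green wildtype 24 h point lies at the left end, and in C1q, Plaur, Plat, Thbd and Cfp rows it lies at the right end.

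The genotypes were close before the drug and apart after it. At 0 h the median difference, YAP-KO minus wildtype, was -0.03 both for the hepatocyte-made genes and for those of other cells, and -0.03 over all genes. Beside Mbl2, C9 (-0.84) and C8g (-0.61) differed by 1.5-fold or more, both lower in YAP-KO. At 24 h, 14 hepatocyte-made genes of 36 were 2-fold or more higher in YAP-KO and 0 lower, where 3.23% of all genes were higher and 5.73% lower (10.1% and 11.4% of the bright genes). All 34 with a difference to give were above 0, among them Fga, for which only a bound of at least 0.02 holds. Their median was 0.81, against -0.02 over all genes. Of all 18503 genes 8659 were above 0.

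Mbl2 led at 2.89, followed by C6 (2.11), Mbl1 (1.94), Proz (1.88), F11 (1.81), C8a (1.58), C4bp (1.55), F7 (1.45) and F10 (1.40). Mbl2 was already 1.30 higher in YAP-KO at 0 h, and its difference of the responses was 1.59. The smallest differences were those of F12 (0.22), Kng2 (0.23), Kng1 (0.27) and Proc (0.40). On the other side, 3 genes of other liver cells were 2-fold or more lower in YAP-KO at 24 h and 0 higher. These were Plaur (-2.01), Plat (-1.76) and Thbd (-1.55), and the median of the 13 was -0.50.

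**Figure D3:**
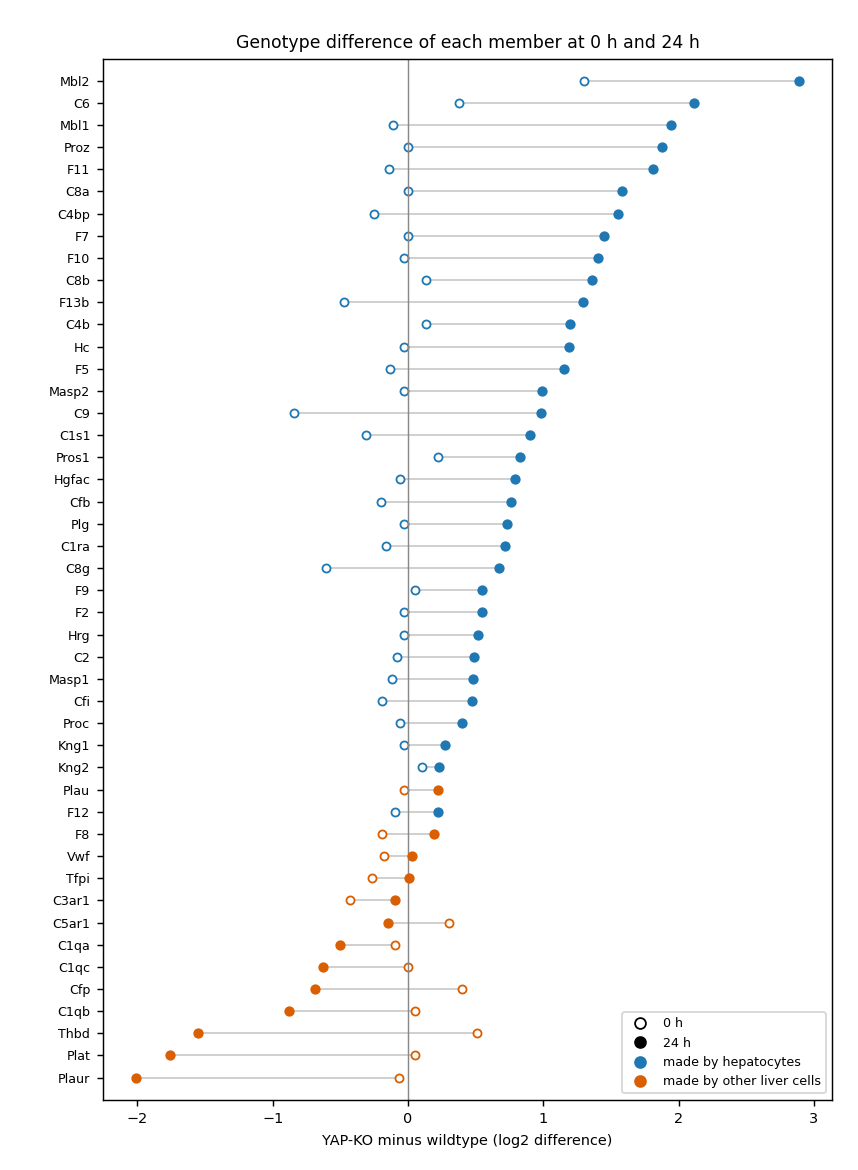
Each row is 1 gene, ordered by the difference between YAP-KO and wildtype at 24 h (filled points), with the same difference at 0 h as an open point, in log2 units; blue is hepatocyte-made and orange made by other liver cells, and the fibrinogen genes are left out as saturated. Most open points lie near 0, and the filled points run from -2.01 for Plaur to 2.89 for Mbl2.

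The responses in wildtype and YAP-KO come from separate arrays. In all 33 unsaturated hepatocyte-made genes the wildtype response was below that in YAP-KO. In 20 of them it was negative in wildtype and positive in YAP-KO, in 11 negative in both and in 2 positive in both. Of all 18503 genes, 9088 had a higher response in YAP-KO and 9252 a lower one. The difference of the responses was 2-fold or more in 18 of the 36, all with the higher value in YAP-KO, where 5.66% of all genes were higher in that sense and 7.49% lower (13.5% and 11.7% of the bright genes). Mbl1 (2.05), F11 (1.95), Proz (1.88), C9 (1.82) and C4bp (1.80) led, and all 6 terminal pore members were among the 18. Of the pore members, C9 and C8g were already lower in YAP-KO at 0 h (-0.84 and -0.61). Their genotype differences at 24 h were 0.98 and 0.67, under 2-fold. For C7, outside the members, the difference of the responses was -0.69. The kininogen genes and F12 had the smallest differences (0.13 to 0.32). Among the 13 genes of other cells, 4 had a response 2-fold or more lower in YAP-KO (Thbd -2.06, Plaur -1.94, Plat -1.81 and Cfp -1.09) and 0 higher.

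Markers of other cell types gave readings that differed between lists. Beside the counts below, 12.7% of all genes were 2-fold higher at 24 h in wildtype and 4.73% in YAP-KO. Of 8 Kupffer cell markers, 5 were 2-fold higher at 24 h in wildtype against 2 in YAP-KO, and the mean level of the list was 8.39 and 8.36 at 0 h, then 9.61 and 8.78 at 24 h. Vsig4, a complement receptor of Kupffer cells, responded by 1.65 in wildtype against 0.08 in YAP-KO, and Marco by 3.16 against 1.64. The response was lower in YAP-KO for 7 of the 8, and Cd5l was the exception (1.85 in wildtype against 2.08). Clec4f was level in wildtype (0.00) and lower in YAP-KO (-0.70). Of 13 monocyte and macrophage markers, 7 were higher in wildtype and 8 in YAP-KO, with mean levels of 6.09, 5.95, 8.03 and 7.88 in the same order. Single markers of that list went both ways between the genotypes at 24 h, 7 lower and 6 higher in YAP-KO. Cd14 was at -3.73 and Clec7a at 1.53. Neutrophil markers were higher in 5 of 10 and 3 of 10, with mean levels of 5.03 and 5.13 at 0 h, then 6.73 and 5.71 at 24 h. Of 12 sinusoidal endothelial markers 3 and 2 were higher, with mean levels of 8.81 and 8.82, and 9.66 and 9.26. Their median response was 0.27 in wildtype, where 8 were above 0 and 4 below, and 0.13 in YAP-KO. Lyve1 had the largest response of that list in wildtype (5.51). Of 7 platelet and megakaryocyte markers, 4 of which passed the filter, 2 were higher in wildtype and 0 in YAP-KO, with mean levels of 4.50 to 4.92. These were Ppbp (2.14 in wildtype against 0.39 in YAP-KO) and Pf4 (1.42 against 0.00). In wildtype 4 of the 7 were below 0, and the medians of the list were -0.06 in wildtype and 0.00 in YAP-KO. Of the 11 measured hepatocyte markers only Hpd was 2-fold lower in wildtype (17.73 to 15.69), but most of the others were saturated. The part of these cell types in the results was not tested.

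**Figure D4:**
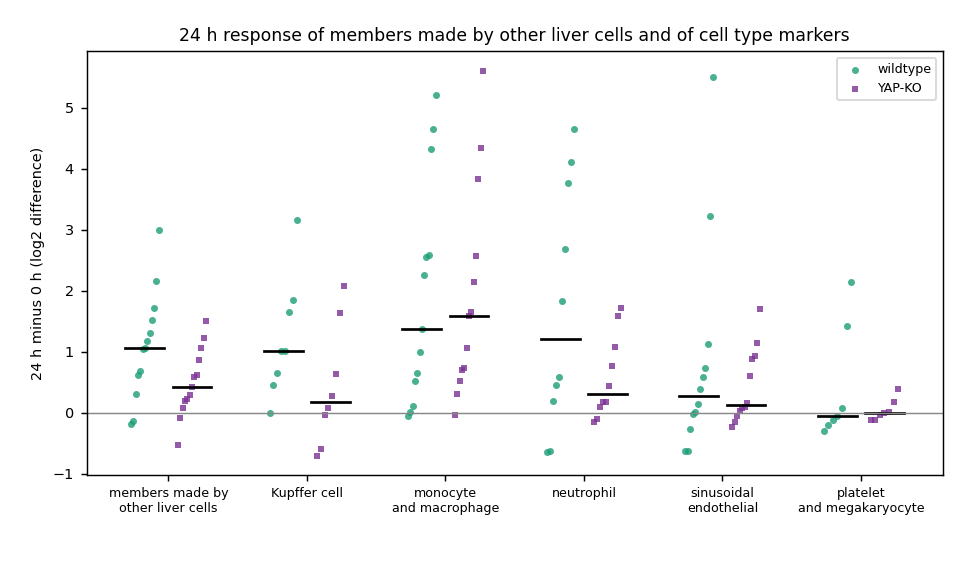
Log2 difference between 24 h and 0 h of each gene (points) in wildtype (circles) and YAP-KO (squares), for the 13 members made by other liver cells and for 5 lists of cell type markers; black lines are medians. The medians of the members are 1.07 and 0.42, those of the Kupffer cell list 1.02 and 0.18, and those of the monocyte and macrophage list 1.38 and 1.58.

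Other genes of these systems came from a list of 48, of which 43 were measured and 40 passed the filter. In wildtype at 24 h 11 were 2-fold lower and 8 higher, beside 5.87% and 12.7% of all genes, so that the count of higher genes is not far from that share. In YAP-KO 0 were lower and 7 higher, beside 2.22% and 4.73%. The enzymes of the vitamin K cycle, which modify F2, F7, F9, F10, Proc, Pros1 and Proz, were among the lower ones. Vkorc1, which recycles vitamin K, read 14.97 and 14.33 at 0 h, then 12.77 and 14.55 at 24 h. Ggcx, the carboxylase itself, read 11.94 and 11.75, and 10.47 and 12.28. Each was lowest on the wildtype 24 h array. For Vkorc1 the genotypes already differed at 0 h, by -0.64.

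Several liver-made inhibitors also read lower in wildtype at 24 h. Serpinc1, antithrombin, had responses of -1.31 in wildtype against -0.25 in YAP-KO, and Serpind1, heparin cofactor II, -2.37 and -0.67. Serpina10, the inhibitor that works with protein Z, was 1.54 higher in YAP-KO already at 0 h, then 3.12 higher at 24 h. Tfpi2 was at -2.14 in wildtype against 0.09 in YAP-KO, Cpn2, a subunit of the carboxypeptidase that inactivates C3a and C5a, at -1.33 and -0.05, and the complement protease homolog C1rl at -1.40 and 0.01. Cd59a, the inhibitor of pore assembly, read 12.45 and 12.07, and 10.98 and 11.73. Crp, a pentraxin that can bind C1q, was -2.07 in wildtype against -0.02 in YAP-KO. Apcs, the other short pentraxin, was 3.34 and 4.81 higher.

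The 8 genes of that list that were 2-fold higher in wildtype at 24 h include several of cell surfaces and myeloid cells. F3, tissue factor, the cell-bound trigger of coagulation, read 5.15 and 4.86 at 0 h, then 7.29 and 5.16 at 24 h. Anxa2 and S100a10 form a cell-surface receptor for plasminogen and its activator. Anxa2 read 5.93 and 6.23, and 11.73 and 9.23, and S100a10 read 5.45 and 6.10, and 8.76 and 6.51. The myeloid transglutaminase gene F13a1 was 2.43 and 1.09 higher, and the chains of complement receptor 3, Itgam and Itgb2, were 2.59 and 1.67 higher in wildtype and 1.58 and 1.25 in YAP-KO. Of these genes F3, Anxa2, S100a10 and F13a1 were below wildtype by 2-fold or more in the YAP-KO 24 h array (-2.13, -2.50, -2.25 and -1.25).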

How the data were processed

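RNA from 4 pools of liver was measured on 4 single-channel arrays. The authors deposited 1 value per probe set and array, taken as log2 from its range, with array medians of 4.32 to 4.47. The labels name Trizol extraction and the GeneChip WT Plus labelling kit; how the values were summarised and normalized is not given in the sources used here. Members and gene lists were chosen with earlier results of these data known. Of 65956 probe sets, 31402 carried 1 gene, 1348 several and 33206 none. Entrez identifiers gave the RefSeq symbols (GRCm38.p6), a change for 853, and the brightest probe set was read for 425 genes with several. Genes with a mean under the 40th percentile were left out. Values within 0.01 of an array's highest were called saturated. Differences between saturated values were not given, and those from saturated to lower values are bounds. Differences of 2-fold (or 1.5-fold, where stated) were counted, with no test, since each group had 1 array; a fit of genotype plus time was not made. Any member may be named. Of the other pathway genes, those past 2-fold in some contrast may be, with C4a, C1s2 and C1rb as paralogs of members and C7 as a pore gene. Of marker, acute phase and transcription factor lists, up to 3 with the largest differences in a contrast may be, with genes that go the other way. Defining hepatocyte genes and Cd3e serve as checks. The sources of members (hepatocytes or other cells) are from textbook knowledge. With 1 array per group, array number limits precision. The difference and counting steps were tested on simulated data. Python 3.11.15, pandas 2.3.3 and numpy 2.4.6 were used. The motifs of promoters to show were chosen after their matches were seen, and 1 item is not reported here.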

Additional observations from a re-analysis of the deposited data

Results flagged for a closer look

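Of the members, 3 differed by 1.5-fold or more in opposite directions between 0 h and 24 h in the genotypes. Each group had 1 array, so the difference was not tested. The share of all genes that did so was not counted, and the 3 are not a result about the members as a set. F11 responded by -0.72 in wildtype against 1.23 in YAP-KO, a difference of 1.95. C4bp had -1.11 and 0.69, a difference of 1.80. C8a had -0.74 and 0.84, a difference of 1.58.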

How the results depend on the processing

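The counts of members at or past 2-fold stayed within 1.5 times of their values, and the medians of both source groups within a 1.5-fold difference, under the mean of all probe sets, no filter or a 60th percentile filter, quantile normalization, centring of the arrays and leaving out saturated members. At 1.5-fold the count went from 5 to 13 for the YAP-KO response, from 1 to 3 for the genotypes at 0 h and from 17 to 29 at 24 h. Against the wildtype 0 h array 3 members passed 2-fold in YAP-KO. The hepatocyte-made median in wildtype was -0.68 to -1.07 over all settings, including those added after the data were seen (without hepatocyte-made members at 19 or more, without C6, and, for other cells, without 5 members under 6 on average). Quantile normalization gave 21 hepatocyte-made genes lower in wildtype where 15 were counted, and centring gave 13. Their median went from -0.78 to -1.07 with quantile normalization and to -0.68 with centring. Over all genes these scalings shifted the median by at most 0.1, so the hepatocyte-made genes moved more than that under quantile normalization. Of the single members only Mbl2, C8g and C9 moved by 1.5-fold or more with the other 0 h array: their wildtype responses became -3.23, -0.94 and -0.64, and those in YAP-KO 0.96, -0.88 and -0.50. No paired analysis was possible because each group had 1 array. Signal over background was not known, so the readings of dim genes (Vwf, Plat, Plau, C3ar1 and C5ar1, and Plaur at 0 h) have no known floor, and saturation limits the fibrinogen genes, Plg and Hrg.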

Other observations

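Acute phase genes that are no members gave other counts than the hepatocyte-made members. Of 19 measured, 6 were 2-fold higher and 1 lower at 24 h in wildtype, and 9 and 0 in YAP-KO. In wildtype 12.7% of all genes were higher and 5.87% lower (24.9% and 15.1% of the bright genes). In YAP-KO 4.73% were higher and 2.22% lower (13.6% and 5.95% of the bright genes). The wildtype count of higher genes is not far from the share of the bright genes. Between the genotypes 5 were higher in YAP-KO at 0 h, when only Mbl2 of the members was, and 9 at 24 h. The shares of all genes were 1.02% and 3.23%. Saa1, uncertain because Saa2 is a near-identical copy, read 10.52 in wildtype against 14.49 in YAP-KO at 0 h, then 9.69 and 17.05 at 24 h. Orm2, which encodes an orosomucoid, read 13.34 and 13.44, and 13.51 and 17.01, so that the YAP-KO 24 h array alone was high.

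Of 11 hepatocyte transcription factor genes, 4 were 2-fold lower and 1 higher at 24 h in wildtype, against 2 and 0 in YAP-KO. The shares of all genes were 5.87% and 12.7% in wildtype, and 2.22% and 4.73% in YAP-KO. Onecut1 read 10.75 and 10.73 at 0 h, then 7.77 and 10.09 at 24 h. Cebpa, which encodes a C/EBP factor, read 12.94 and 12.78, and 10.51 and 11.50. Nr1h4, the bile acid receptor gene, read 12.52 and 12.30, and 10.10 and 11.55. Each was lowest on the wildtype 24 h array, as on the whole were the hepatocyte-made members (mean level 14.3, against 15.2 to 15.3 on the other arrays). A link between these factors and the members was not tested. Hnf4a was lower in both genotypes (-0.90 and -1.45). The other C/EBP genes of the list did not follow Cebpa. Cebpd was the 1 gene higher in wildtype (1.67, against -0.13 in YAP-KO), and Cebpb was at 0.35 and 0.05.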
